A study of Mus musculus with 8 samples.

Results

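The genes described here are 10 acute-phase genes of the liver: the lipocalin gene Lcn2, the orosomucoid genes Orm1, Orm2 and Orm3, and Lrg1, Hp, Hpx, Apcs, Lbp and Itih4. They were taken by name, through the Ensembl ID that carries each symbol. The rule uses no measured value, but the set was drawn up with earlier results of these data known. The Ensembl IDs were Lcn2 (ENSMUSG00000026822), Orm1 (ENSMUSG00000039196), Orm2 (ENSMUSG00000061540), Orm3 (ENSMUSG00000028359), Lrg1 (ENSMUSG00000037095), Hp (ENSMUSG00000031722), Hpx (ENSMUSG00000030895), Apcs (ENSMUSG00000026542), Lbp (ENSMUSG00000016024) and Itih4 (ENSMUSG00000021922). All 10 were found among the 56748 gene IDs of the count table, and all 10 passed the filter on low counts that left 13204 genes for testing. The series profiled total RNA from mouse liver by bulk RNA sequencing. All mice were on a high-fat, high-fructose diet and the samples are labelled MASLD (metabolic dysfunction-associated steatotic liver disease) at 16 weeks. Of the 8 libraries, 4 are labelled miR-93 knockout and 4 wild type, and the single comparison asked what differs in liver RNA when the microRNA miR-93 is missing. Strain, sex, age, and the cells in which miR-93 was deleted were not stated in the labels. Nothing in the labels ties each library to its own mouse, so the p-values rest on a spread between libraries that may be technical.

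The acute-phase response is the change in plasma proteins that the liver makes during inflammation or injury. Hepatocytes answer interleukin-6, which signals through gp130 and the transcription factor STAT3, and interleukin-1, which signals through NF-kB, and the C/EBP factors act on many of the same promoters. The proteins that rise are called positive acute-phase proteins, and those that fall, such as albumin, negative ones. The 10 genes cover several jobs within that response: binding of small molecules and drugs (the orosomucoids), withholding of iron from bacteria (Lcn2), capture of free haemoglobin and haem (Hp, Hpx), recognition of bacteria and debris (Lbp, Apcs), and plasma proteins tied to matrix and vessels (Itih4, Lrg1).

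Some libraries stood apart before any gene was considered. Total counts were 9187279 to 10966019 in the knockout and 5085860 to 7451026 in the wild-type libraries, and mitochondrially encoded genes took 8.08% to 15.03% of counts in knockout and 25.4% to 77.8% in wild type. The highest mitochondrial share and the lowest total were both in wild-type replicate 4, which had 1131446 counts outside the mitochondrial genome, so its values for scarce transcripts rest on few reads. Depth and mitochondrial share moved with genotype, and their part in the results was not tested. Mir93 itself had 0 counts in all 8 libraries, so these counts do not check the knockout label. All 12 markers of hepatocytes fixed for the check were measured, with a summed level of 45334 to 51619 CPM in knockout and 54460 to 71121 CPM in wild type. CPM here means library-size-adjusted counts after scaling with edgeR's TMM factors.

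Before the values, the sequences on which a direct microRNA match or a shared promoter element would be read are shown. The mature miR-93-5p is printed with its seed, bases 2 to 8, in capitals, followed by the only stretches of the 10 genes' 3′ UTRs that hold the 7-letter complement of that seed, in capitals. The microRNA is from RefSeq on GRCm38.p6, and the UTRs are the longest annotated in GENCODE M21.
miR-93-5p: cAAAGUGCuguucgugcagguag
Orm1 3′ UTR: cctcctgtGCACTTTgattctgt
Orm2 3′ UTR: cctcctgtGCACTTTgattctgt
Orm3 3′ UTR: catcctgtGCACTTTgattctgt
Lbp 3′ UTR: gggtgctgGCACTTTgtaggtcc

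The match GCACTTT was present in 4 of the 10 genes, Orm1, Orm2, Orm3 and Lbp, against 1689 of 11573 tested genes with an annotated 3′ UTR (14.6%). In the orosomucoids it began at base 60 or 61 of a UTR of 113 or 114 bases, and in Lbp at base 326 of 902. Short UTRs seldom hold the match. Among 193 tested genes with a 3′ UTR of 100 to 130 bases, 3 held it (1.55%), and these 3 were Orm1, Orm2 and Orm3. Among 845 tested genes with a UTR of 800 to 1000 bases, near the length of Lbp, 82 did (9.7%). The 3 orosomucoid genes are copies of each other, so their shared match is not 3 separate occurrences, and a match of letters is a description and not a shown binding site.

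RefSeq promoter windows, 250 bases before to 50 after the start, were found for 7 of the 10 genes: Lcn2, Orm2, Orm3, Lrg1, Hpx, Apcs and Itih4. Both strands were searched. The C/EBP-type motif TTGCNNAA was present in the windows of Lcn2, Orm2, Orm3 and Hpx (4 of 7, against 10.8% of 27025 windows). The STAT-type motif TTCNNNGAA was present in those of Apcs and Itih4 (2 of 7, against 8.47%). These motifs do not share letters in any of the 7 windows, and consensus motifs for NF-kB (0.385% of all windows) and the glucocorticoid receptor (0.0037%) were present in none. Orm2 and Orm3 are copies of each other, so their C/EBP-type matches are not separate occurrences. A motif that is not in a window says nothing about the factor. The windows below are given 5′ to 3′ along the gene, on GRCm38.p6, with motif matches in capitals: Orm2 (chr4:63362199-63362498, plus strand) and Orm3 (chr4:63355908-63356207, plus strand) because the match lay at nearly the same distance from the start in both, Lcn2 (chr2:32387690-32387989, minus strand) because it had the largest fold change, and Itih4 (chr14:30886226-30886525, plus strand) as a gene with the STAT-type motif.
Orm2: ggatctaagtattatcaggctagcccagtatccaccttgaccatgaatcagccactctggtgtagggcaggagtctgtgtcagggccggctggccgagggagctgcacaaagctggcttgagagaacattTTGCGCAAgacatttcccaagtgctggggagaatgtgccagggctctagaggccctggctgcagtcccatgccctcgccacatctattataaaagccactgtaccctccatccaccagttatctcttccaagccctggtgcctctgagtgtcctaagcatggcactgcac
Orm3: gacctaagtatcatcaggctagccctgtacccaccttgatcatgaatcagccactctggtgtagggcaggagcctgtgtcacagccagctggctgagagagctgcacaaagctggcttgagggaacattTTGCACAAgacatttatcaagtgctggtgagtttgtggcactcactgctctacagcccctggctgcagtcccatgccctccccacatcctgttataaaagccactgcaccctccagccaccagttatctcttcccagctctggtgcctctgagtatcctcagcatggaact
Lcn2: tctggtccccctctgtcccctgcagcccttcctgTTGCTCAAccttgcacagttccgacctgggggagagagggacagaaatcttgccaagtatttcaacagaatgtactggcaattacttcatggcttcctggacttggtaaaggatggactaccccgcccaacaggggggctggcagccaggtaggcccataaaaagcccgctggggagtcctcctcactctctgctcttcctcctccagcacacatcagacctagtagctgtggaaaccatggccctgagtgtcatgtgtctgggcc
Itih4: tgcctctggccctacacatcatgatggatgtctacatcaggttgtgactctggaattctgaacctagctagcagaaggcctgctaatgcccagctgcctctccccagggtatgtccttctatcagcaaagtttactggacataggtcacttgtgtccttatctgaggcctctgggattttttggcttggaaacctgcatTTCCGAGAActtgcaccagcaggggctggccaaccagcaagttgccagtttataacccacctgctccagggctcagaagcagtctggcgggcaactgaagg

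In Orm2 the match TTGCGCAA covered bases -120 to -113 before the start, and in Orm3 the match TTGCACAA covered -121 to -114. The Lcn2 match TTGCTCAA lay farther out, at -216 to -209, and the Itih4 match TTCCGAGAA at -51 to -43.

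All 10 genes rose in knockout liver, and none fell. The test was edgeR's quasi-likelihood test with Benjamini-Hochberg adjustment over all 13204 genes, which called 1369 genes (10.4%) higher at an adjusted p under 0.05. Of the 10 genes, 9 were called with a rise of at least 2-fold, as were 3.83% of tested genes. In all 10 the lowest knockout library lay above the highest wild-type library, as it did in 16.3% of tested genes. Their median log2 fold change was 2.42, beside -0.01 over all tested genes. Without wild-type replicate 4 the 10 genes again all rose, with a median of 2.43, and in that fit 17.8% of tested genes were called higher. In bulk RNA, more transcript per cell and more cells of the type that makes it cannot be told apart.

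**Figure D1:**
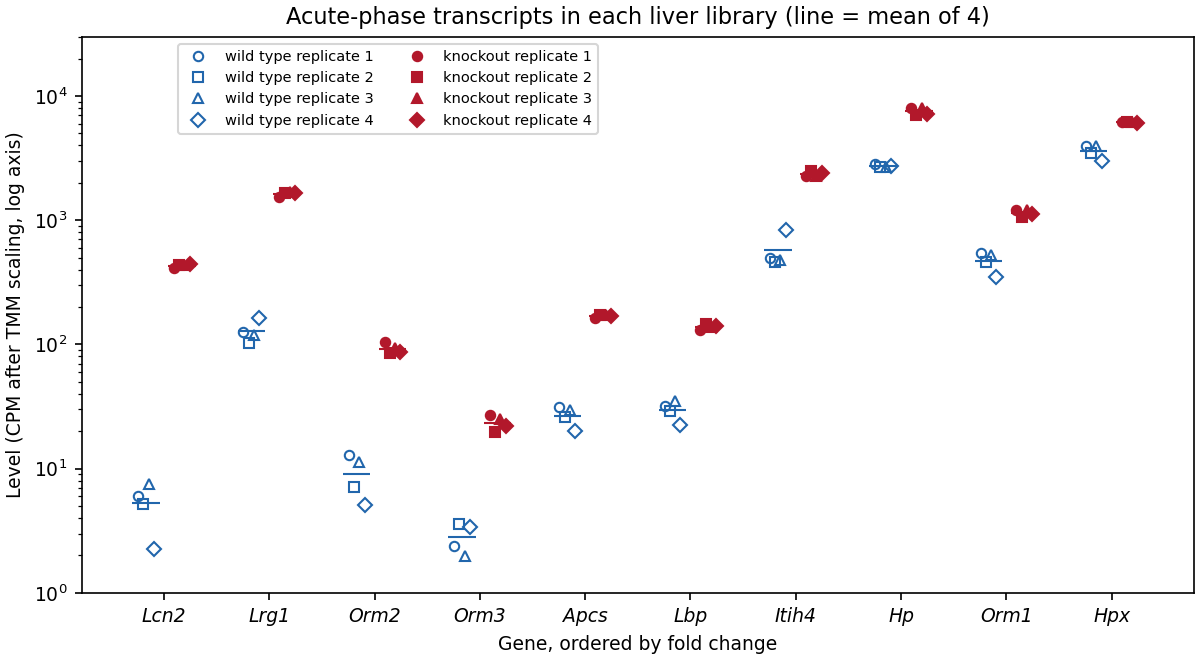
Level of each of the 10 genes in each library, in CPM after TMM scaling on a log axis, with wild type in open blue symbols, knockout in filled red symbols and a line at each mean of 4. The knockout libraries of every gene sit above all wild-type libraries, from a narrow gap in Hpx to the wide one in Lcn2.

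Lcn2, the siderophore-binding protein that keeps iron from bacteria and is made by stressed hepatocytes and by neutrophils, had the largest rise of the 10. Its level was 409, 436, 436 and 446 CPM in knockout replicates 1 to 4 and 6.06, 5.22, 7.59 and 2.25 CPM in wild-type replicates 1 to 4. The knockout libraries lay close together, while wild-type replicate 4, with 4 counts of Lcn2, was the lowest of its group. The log2 fold change was 6.24 ± 0.25 (SE, 4 libraries per group, adjusted p = 5.04e-08), a 75.4-fold rise, or 6.11 without wild-type replicate 4. Only 2 tested genes had a larger log2 fold change. Lcn2 went from rank 5007 to rank 112 in level per kilobase of transcript among 11618 tested genes with a transcript length.

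Markers of other cells that can make Lcn2 were read beside it. Of 16 neutrophil markers 3 were tested, and 1 of them, the protease gene Prtn3, rose (4.51 ± 0.55, adjusted p = 0.000264), from a mean of 0.145 to 4.15 CPM. The summed level of the 16 was 13.2 to 21.1 CPM in knockout and 6.37 to 18.0 CPM in wild type. The groups overlapped through wild-type replicate 4, while the other wild-type libraries lay below every knockout library. Of the 13 markers too scarce to test, Ngp, Mpo and Ly6g had 0 counts in every library, and the other 10 had more counts in the knockout libraries together than in the wild-type ones. These counts are not adjusted for the greater depth of the knockout libraries. The largest among them were Itgam (57 against 7 counts), S100a8 (55 against 20), Ltf (47 against 0, with 46 in a single library) and Retnlg (28 against 2). S100a9 was higher in every knockout library than in any wild-type library but was not called (0.94 ± 0.51, adjusted p = 0.21). The remaining tested marker, Csf3r, had a negative fold change and was not called (-0.17 ± 0.34, adjusted p = 0.763). Its groups overlapped. The 8 cholangiocyte markers summed to 32.4 to 36.7 CPM in knockout and 12.9 to 21.4 CPM in wild type, and of the 3 tested Spp1 rose (0.81 ± 0.20, adjusted p = 0.0149). Among the untested ones, Krt19 had 107 counts in knockout, 87 of them in 1 library, against 10 in wild type, and Epcam had 69 against 7. The 8 adipocyte markers summed to 35.6 to 36.1 CPM in knockout and 27.0 to 52.9 CPM in wild type, where replicate 4 was the highest. Of the 3 tested Cidec, which steatotic hepatocytes also express, rose (1.27 ± 0.21, adjusted p = 0.00214), and Lep had 0 counts in every library. Among the other untested ones, Adipoq and Retn each had 0 counts in knockout against 10 in wild type. Cfd had 3 against 4 and Plin1 2 against 0, and these counts too are not adjusted for depth. The part of these cell types in the Lcn2 result was not tested.

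The orosomucoids, also called alpha-1-acid glycoproteins, are small, heavily glycosylated plasma carriers of basic drugs and lipids. Orm1, the most abundant of the 3, stood at 1205, 1071, 1206 and 1114 CPM in knockout replicates 1 to 4 and at 547, 459, 529 and 350 CPM in wild-type replicates 1 to 4. Replicate 4 was the lowest wild-type library, and the groups did not overlap. The rise was 1.28 ± 0.16 on the log2 scale (adjusted p = 0.000307), or 2.43-fold.

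Orm2 was at 105, 84.7, 94.0 and 86.6 CPM in knockout and at 12.8, 7.15, 11.4 and 5.06 CPM in wild type. Wild-type replicates 2 and 4 were lower than replicates 1 and 3, by less than the gap to the knockout libraries. Its log2 fold change was 3.26 ± 0.23 (adjusted p = 4.22e-06), a 9.60-fold rise. Orm3 was the scarcest of the 10 genes, at 26.9, 19.6, 24.9 and 21.8 CPM in knockout and 2.40, 3.57, 1.97 and 3.37 CPM in wild type. The wild-type values rest on 6 to 26 counts per library, and no wild-type library stood apart. Its log2 fold change was 3.09 ± 0.22 (adjusted p = 4.67e-06), or 8.50-fold.

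The 3 orosomucoid genes did not rise by the same factor. Orm1 made up 97.6% ± 0.18 of their summed counts in wild type and 90.8% ± 0.49 in knockout (SD, n = 4 per group). The share of Orm2 went from 1.82% ± 0.42 to 7.32% ± 0.37 and that of Orm3 from 0.623% ± 0.27 to 1.84% ± 0.15. These shares do not depend on how libraries are scaled. Each differed between the genotypes (exact permutation test, two-sided, p = 0.0286, and 0.0286 after Benjamini-Hochberg adjustment over the 3 shares), the lowest value possible with 70 ways to divide 8 libraries into 4 and 4. The 3 shares of a library make up its whole orosomucoid sum, so the 3 results are not separate. In wild-type replicate 4, the shallowest library, Orm2 held 9 of 638 orosomucoid counts, 1.41% with a 95% exact binomial interval of 0.647% to 2.66%, below the lowest knockout share of 7.09%. Such intervals cover counting error only.

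**Figure D2:**
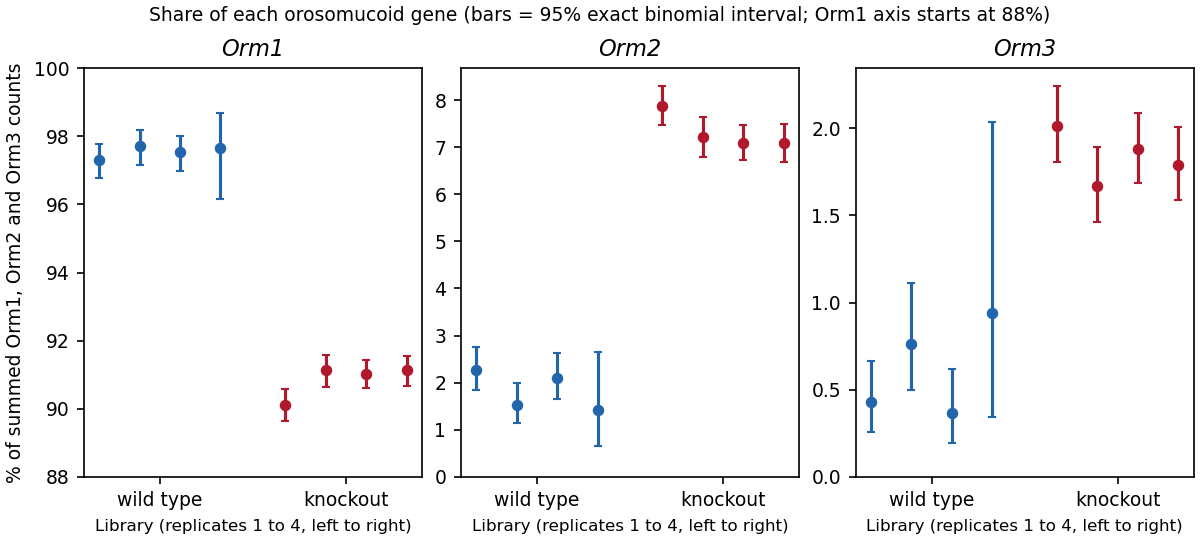
Share of Orm1, Orm2 and Orm3 in their summed counts for each library, with replicates 1 to 4 from left to right in wild type (blue) and knockout (red), and 95% exact binomial intervals. The Orm1 panel starts at 88%; Orm1 falls from about 97.6% to 90.8% while Orm2 and Orm3 take larger shares in every knockout library.

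The sources used here do not say how reads that fit several of these copies were assigned. The longest coding transcripts of Orm1 and Orm2 (775 bases each) are 91% identical, with a longest identical stretch of 141 bases. Orm3 (773 bases) is 86.5% identical to Orm1 and 88.5% to Orm2, with stretches of 65 and 75 bases. The division among the 3 is therefore less certain than their sum. Summed into 1 gene before the fit, the orosomucoids rose by 1.39 ± 0.16 on the log2 scale (adjusted p = 0.000187), or 1.28 without wild-type replicate 4. The sum was 1175 to 1337 CPM in knockout and 359 to 562 CPM in wild type.

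Hp encodes haptoglobin, which captures free haemoglobin, and Hpx encodes hemopexin, which captures free haem. They were the most abundant of the 10 genes and among those with the smallest folds. Hp was at 8010, 6985, 7998 and 7165 CPM in knockout replicates 1 to 4 and 2817, 2684, 2700 and 2744 CPM in wild-type replicates 1 to 4. The wild-type libraries differed little, replicate 4 included, and knockout replicates 2 and 4 were lower than 1 and 3. The log2 fold change was 1.46 ± 0.13 (adjusted p = 2.59e-05), or 2.76-fold.

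Hpx was at 6207, 6137, 6175 and 6115 CPM in knockout, with an SD of 0.660% of the mean. In wild type it was at 3925, 3489, 3941 and 2979 CPM, with replicate 4 the lowest. Its log2 fold change of 0.78 ± 0.14 (adjusted p = 0.00279), a 1.72-fold rise, was the smallest of the 10. With scaling by library size alone the fold change read 1.30 but was not called (adjusted p = 0.0958), and it was not shown to exceed 1.5-fold (adjusted p = 0.262). That scaling shifts the median of all tested genes to 0.54, and Hpx stayed above that median. No other call among the 10 genes was lost under any alternative that was run.

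Hp and Hpx together supplied 68.4% to 70.9% of the summed counts of the 10 genes in knockout and 80.2% to 84.9% in wild type. As a share of counts outside the mitochondrial genome, which uses no scaling factor, the 10 genes together took 2.97%, 2.70%, 2.86% and 2.71% in knockout replicates 1 to 4 and 1.14%, 1.10%, 1.13% and 1.12% in wild-type replicates 1 to 4. The 4 wild-type libraries lay close together on this summed measure, also replicate 4 with its 77.8% of mitochondrial counts. The sum hides differences of single genes. In CPM, replicate 4 stood at 0.358 (Lcn2) to 1.75 (Itih4) times the mean of the other wild-type libraries. As a mean share of counts outside the mitochondrial genome, Lcn2 was 79.5 times as high in knockout as in wild type and Hpx 1.66 times.

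**Figure D3:**
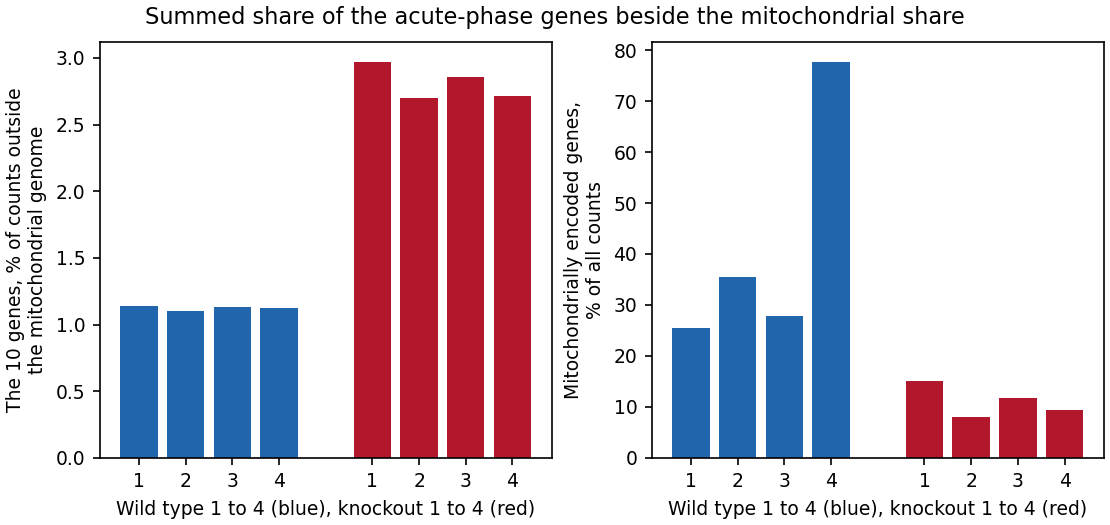
Left, the 10 genes together as a percentage of counts outside the mitochondrial genome; right, mitochondrially encoded genes as a percentage of all counts; bars are single libraries, wild type in blue and knockout in red. The summed share is 1.10% to 1.14% in wild type and 2.70% to 2.97% in knockout. Wild-type replicate 4 stands apart only in the right panel, and the sum on the left does not show its differences for single genes.

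Lrg1 encodes leucine-rich alpha-2-glycoprotein, a plasma protein that hepatocytes, neutrophils and endothelium can make and that modifies TGF-beta signalling in vessels. Its level was 1542, 1660, 1694 and 1641 CPM in knockout and 125, 102, 118 and 164 CPM in wild type. Here wild-type replicate 4 was the highest of its group, and all 4 knockout libraries lay far above it. The log2 fold change was 3.69 ± 0.17 (adjusted p = 2.29e-07), a 12.9-fold rise and the next largest after Lcn2, or 3.83 without wild-type replicate 4. Of 12 markers of the sinusoidal endothelium 6 rose and none fell, and their summed level was 225 to 399 CPM in knockout and 159 to 313 CPM in wild type. The highest wild-type sum was again that of replicate 4, and the other wild-type libraries lay below every knockout library. The part of endothelial cells in the Lrg1 result was not tested.

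Apcs and Lbp encode plasma proteins that recognise bacteria and debris. Apcs, serum amyloid P component, is a major acute-phase pentraxin of the mouse. It was at 164, 173, 171 and 170 CPM in knockout and 31.2, 25.8, 29.4 and 20.2 CPM in wild type, and rose by 2.64 ± 0.15 on the log2 scale (adjusted p = 1.15e-06), or 6.25-fold. The 4 knockout libraries differed little, and wild-type replicate 4 was the lowest.

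Lbp, which hands bacterial lipopolysaccharide to CD14 and TLR4, was at 130, 147, 137 and 140 CPM in knockout and 32.2, 29.1, 34.7 and 22.5 CPM in wild type. Wild-type replicate 4 was again the lowest, and the groups were well apart. The log2 fold change was 2.20 ± 0.15 (adjusted p = 3.95e-06), or 4.59-fold.

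Itih4, a heavy-chain relative of the inter-alpha-trypsin inhibitors that bind hyaluronan, was at 2256, 2470, 2268 and 2381 CPM in knockout and 498, 464, 480 and 842 CPM in wild type. The first 3 wild-type libraries lay together and replicate 4 was well above them, still below every knockout library. The log2 fold change was 2.04 ± 0.20 (adjusted p = 5.76e-05), or 4.11-fold, and 2.29 ± 0.09 without that library.

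Wild-type replicate 4 was thus not low for all 10 genes: it was the lowest wild-type library for 6 (Lcn2, Orm1, Orm2, Hpx, Apcs and Lbp) and the highest for 2 (Lrg1 and Itih4). Among the knockout libraries, replicate 1 was the lowest for Lcn2, Lrg1, Apcs, Lbp and Itih4, and replicate 2 for the 3 orosomucoids and Hp. The knockout libraries varied less than the wild-type ones for 9 genes, with SDs of 0.660% to 13.9% of the mean against 12.7% to 42.5%. Hp was the exception, with 7.18% in knockout and 2.17% in wild type. The wild-type SDs include replicate 4, at 842 CPM for Itih4 beside 464 to 498 CPM in the other wild-type libraries. SDs without that library were not computed.

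The rises ran in the order Lcn2, Lrg1, Orm2, Orm3, Apcs, Lbp, Itih4, Hp, Orm1 and Hpx. The 95% interval of Lcn2 (5.70 to 6.78) lay above that of Lrg1 (3.30 to 4.07), and every later gene's interval overlapped that of the next in order. Levels per kilobase of transcript, which can be compared between genes, were ordered differently. In knockout the means fell from Hp (5606 CPM per kilobase) and Hpx (4108) through Orm1 (1483), Lrg1 (1161), Itih4 (664), Lcn2 (472), Apcs (175), Orm2 (120) and Lbp (54.8) to Orm3 (30.2), and no neighbours in that order overlapped over the 4 libraries.

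In wild type the order by level per kilobase was Hpx (2391), Hp (2034), Orm1 (608), Itih4 (162), Lrg1 (90.6), Apcs (27.5), Lbp (11.7), Orm2 (11.7), Lcn2 (5.77) and Orm3 (3.66). Hpx and Hp overlapped there, as did Lbp with Orm2, Orm2 with Lcn2, and Lcn2 with Orm3. Genes that were scarcer in wild type tended to have the larger folds (Spearman's rho -0.806, Pearson's r -0.726 on log2 levels, over the 10 genes). The wild-type level enters both quantities, so this is a description only.

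**Figure D4:**
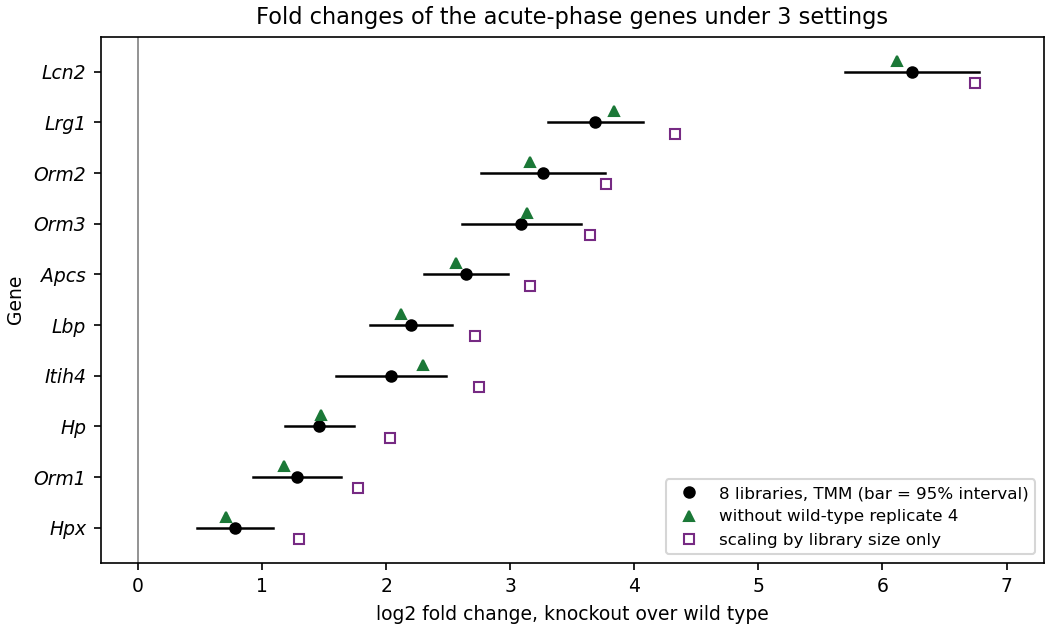
Log2 fold change of each gene, knockout over wild type, from all 8 libraries with TMM scaling (black, bars are 95% intervals), without wild-type replicate 4 (green triangles) and with scaling by library size only (purple squares). All points lie above 0; Lcn2 stands apart at 6.24, and scaling by library size moves every gene to the right, along with the median of all tested genes at 0.54.

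Other genes of the response were read from lists, which were drawn up with earlier results of these data known. Of 36 other positive acute-phase genes 34 were tested, 22 rose and 1 fell, with a median log2 fold change of 1.14 beside -0.01 over all tested genes. The smallest p-values were those of the serum amyloids Saa1 and Saa2, the hepatokine gene Fgl1, the metallothioneins Mt2 and Mt1, and the protease inhibitor gene Serpina3n (3.22 ± 0.25, adjusted p = 8.47e-06). Serpina1e, an alpha-1-antitrypsin copy, was the 1 that fell (-1.18 ± 0.13 by SE, adjusted p = 0.00011). It was not called with scaling by library size (-0.59, adjusted p = 0.321), and it has close relatives among which reads may be split. Leaving out wild-type replicate 4 gave 25 genes that rose and 3 that fell.

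In a classical acute-phase response the negative acute-phase proteins fall, and 20 genes of that kind or of other plasma carriers were read, all of them tested. Of these, 5 rose, 3 fell and 12 were not called, with a median of 0.09. Apoa4, a lipoprotein component, rose (2.86 ± 0.15, adjusted p = 4.74e-07), as did the retinol carrier gene Rbp4 (1.13 ± 0.16, adjusted p = 0.000651), the fetuin genes Ahsg (1.04 ± 0.16, adjusted p = 0.00111) and Fetub (0.75 ± 0.12, adjusted p = 0.00179), and Pon1 (0.77 ± 0.14, adjusted p = 0.00297). The corticosteroid carrier gene Serpina6 fell (-1.19 ± 0.14, adjusted p = 0.000146). With scaling by library size Rbp4, Fetub, Pon1 and Serpina6 were not called (adjusted p 0.0513 to 0.308), and 2 genes of the list rose and none fell. Without wild-type replicate 4, 9 rose and 4 fell. Of the other genes that fell, albumin's Alb, named after its values were seen, had -0.52 ± 0.14 (adjusted p = 0.0233). That call was lost when any 1 library was left out, wild-type replicate 4 excepted (adjusted p 0.0656 to 0.0864), with the replicate block and without a filter on low counts, and read 0.01 with scaling by library size.

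Upstream of these genes, 27 of 34 listed cytokine and signalling genes were tested, 10 rose and 1 fell, with a median of 0.27. The interleukin-1 receptor gene Il1r1 rose most surely, from 32.8 ± 6.58 to 234 ± 26.0 CPM (SD, n = 4 per group; log2 fold change 2.84 ± 0.18 by SE, adjusted p = 2.11e-06). Stat3 rose by 1.09 ± 0.12 (adjusted p = 0.000119), its feedback inhibitor Socs3 by 1.60 ± 0.19 (adjusted p = 0.000177) and the interleukin-6 receptor gene Il6ra by 1.26 ± 0.18 (adjusted p = 0.000796). The tumour necrosis factor receptor gene Tnfrsf1a rose by 0.87 ± 0.14 (adjusted p = 0.00136) and the leukaemia inhibitory factor receptor gene Lifr fell (-1.13 ± 0.15, adjusted p = 0.000385). With scaling by library size the last 2 were not called (adjusted p = 0.0518 and 0.343).

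The cytokine transcripts themselves were scarce. Il6 and Il22 had 0 counts in every library, where 3 counts would be 0.219 to 1.69 CPM, and Il1b and Tnf had at most 8 and 7 counts in any library. Tnf had 6 counts in the knockout libraries together against 20 in the wild-type ones, Il1b 19 against 24 and Osm 1 against 6. Lif had 2 against 0 and Il11 4 against 0. These counts are not adjusted for depth and were not tested. The number of called genes in this list depended on the libraries used. It was 11 over all 8 and 18 without wild-type replicate 4. Leaving out knockout replicate 1, 2 or 4 gave 6, and leaving out knockout replicate 3, wild-type replicate 2 or wild-type replicate 3 gave 7. It was 5 with scaling by library size and 6 with the replicate block.

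**Figure D5:**
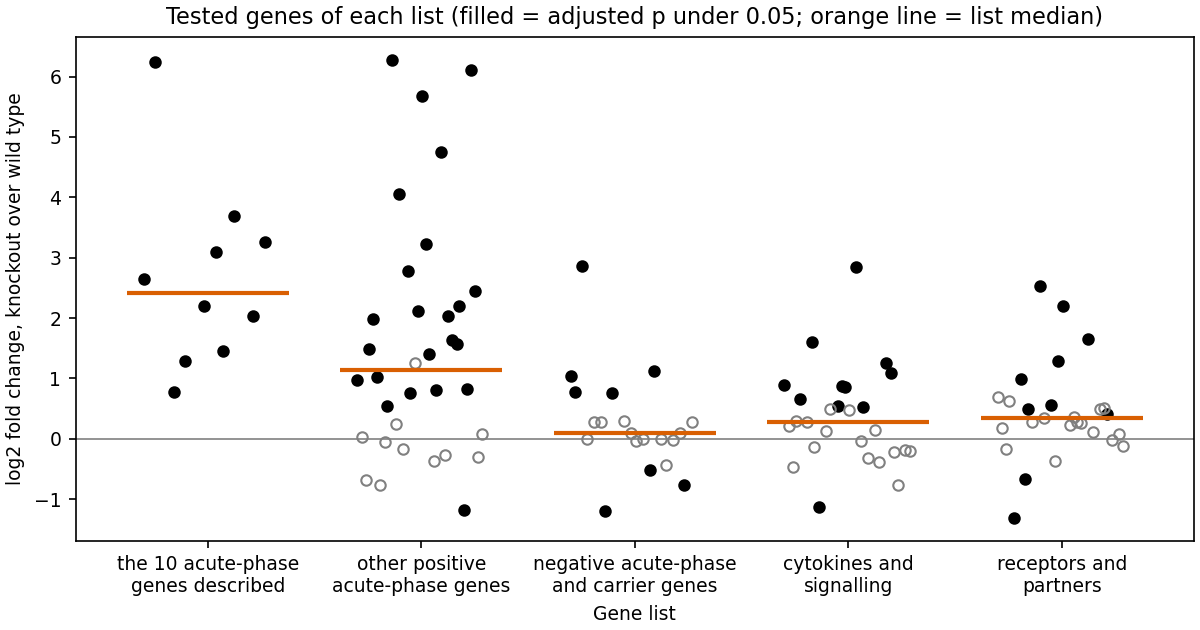
Log2 fold change, knockout over wild type, of the 10 genes and of the tested genes of 4 lists; filled points had an adjusted p under 0.05 and the orange line is the list's median. The 10 genes have a median of 2.42, the other positive acute-phase genes 1.14, and the remaining lists 0.09 to 0.35.

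Of 32 listed receptors, binding partners and relatives of the 10 proteins 27 were tested, 8 rose and 2 fell, with a median of 0.35. Itih3, a heavy-chain gene of the same family as Itih4 that was also counted in the first list, rose by 2.20 ± 0.21 (adjusted p = 4.79e-05), while Itih1 and Itih2, at 0.27 and -0.03, were not called and Itih5 fell (-1.31 ± 0.29, adjusted p = 0.00904; not called with scaling by library size). Cd163, the macrophage receptor that clears haptoglobin bound to haemoglobin, rose from 4.03 ± 3.80 to 17.4 ± 0.776 CPM (SD, n = 4 per group; 2.53 ± 0.40 by SE on the log2 scale, adjusted p = 0.00144). The hemopexin receptor gene Lrp1 (0.12, adjusted p = 0.671) and the Lcn2 receptor gene Slc22a17 (-0.12, adjusted p = 0.828) were not called. Cd14 and Tlr4, the partners of Lbp, had at most 35 and 15 counts in a library and were not tested.

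C1qc (1.66 ± 0.26, adjusted p = 0.00139) and the Fc receptor gene Fcgr2b (0.99 ± 0.21, adjusted p = 0.00708) also rose. The galactose-terminal glycoprotein receptor gene Asgr1 rose by 0.49 ± 0.12 (adjusted p = 0.0167). That call was lost when knockout replicate 2, 3 or 4 was left out, when wild-type replicate 2 or 3 was (adjusted p 0.0504 to 0.0566), with the replicate block and with scaling by library size. The transferrin receptor gene Tfrc fell (-0.66 ± 0.20, adjusted p = 0.0381), a call that was lost without any 1 of the knockout libraries or wild-type replicate 1 (adjusted p 0.0668 to 0.113), with the replicate block and with scaling by library size. Against 10 genes called in this list over all libraries, leaving out wild-type replicate 4 gave 22, and leaving out knockout replicate 2, 3 or 4, or wild-type replicate 2, gave 5 or 6.

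Cd163, C1qc and Fcgr2b are genes of non-parenchymal cells. Of 14 Kupffer cell and macrophage markers 7 rose and none fell, with a summed level of 246 to 300 CPM in knockout and 132 to 319 CPM in wild type. The highest wild-type sum was that of replicate 4, and the other wild-type libraries lay below every knockout library. Markers that fell were counted against the 10.7% of all tested genes that were called lower. Of the tested markers, 9 of 10 of B and T cells, 4 of 10 of stellate cells and 2 of 5 of red blood cells fell, and none of these lists had a marker that rose. The other 6 stellate cell markers were not called, with Dcn at 0.39, and neither were the red blood cell markers Hba-a1 (-0.62), Hbb-bs (0.13) and Hbb-bt (-0.05). Among the 12 hepatocyte markers 2 rose and 3 fell. The part of these cell types in the 10 genes' results was not tested.

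The genes whose profile over the 8 libraries was most like the mean scaled profile of the 10 were Saa2 and Mt1 (Pearson's r 0.9995 each), Saa1 and Fgl1 (0.9988 each) and Mt2 (0.9976), among 7040 other genes with a mean of at least 10 CPM. All 5 were higher in every knockout library, with means of 884 (Saa2) to 1912 CPM (Mt1) in knockout and 16.3 (Mt2) to 87.8 CPM (Fgl1) in wild type. A correlation over these libraries mostly reads the step between the 2 genotypes, and 34 of the 7040 genes had an r above 0.99.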

How the data were processed

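The authors deposited raw gene counts with no normalization for 8 libraries. The submitters' processing notes name cutadapt 4.2, STAR 2.7.10a and the build mm39; the counting program, strand setting and treatment of shared reads are not given in the sources used here. Total counts were 5085860 to 10966019 per library. Gene symbols (52073 of 56748 IDs), transcript lengths and UTRs came from GENCODE M21 (GRCm38), promoters and the microRNA from RefSeq (GRCm38.p6); no coordinates were joined to the counts.

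Knockout and wild type were compared in R 4.3.3 with edgeR 4.0.16 (TMM, filterByExpr, robust quasi-likelihood fit, two-sided, Benjamini-Hochberg over all genes tested, threshold 0.05), without covariates, since the labels name no batch. The orosomucoid shares used exact permutation tests. Alternatives were other scalings and filters, DESeq2 1.42.0, limma 3.58.1 (voom), a replicate block, a minimum fold of 1.5, leaving out mitochondrially encoded genes, and each library in turn. The main edgeR fit was tested on simulated counts, and the permutation test on a small example with a known answer. Transcripts were aligned with Biopython 1.88 and figures drawn with matplotlib 3.10.9.

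The 10 genes, the 4 gene lists and the 9 marker lists were chosen with earlier results of these data known. Named are the 10 genes, up to 6 genes with the smallest p per gene list, those moving in a direction that fewer than 3 took, and the 5 genes most like the 10; other marker and partner genes were named after their values were seen.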

Additional observations from a re-analysis of the deposited data

Results flagged for a closer look

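In 3 of 32 groups of 4 libraries examined, 1 library lay far from the other 3, relative to the group's range; chance alone does this in about 1 of 20 groups. Itih4 in wild-type replicate 4 was at 842 CPM, against 464 to 498 CPM in the other wild-type libraries. In knockout replicate 1, Orm1 made up 90.1% of the orosomucoid counts, against 91.0% to 91.1% in the other knockout libraries, and Orm2 made up 7.87%, against 7.09% to 7.21%. The latter 2 values belong to the same library and the same sum, so they are not separate.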

How the results depend on the processing

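All 10 genes had a positive fold change in every alternative that was run, and 9 kept their call in all 19; Hpx lost it with scaling by library size and against a minimum fold of 1.5. Over all genes tested, 1369 were called higher and 1408 lower. With library size only these counts were 561 and 124, with voom quality weights 2432 and 2552, with the minimum fold 317 and 350, and with each library left out in turn 760 to 2446 and 728 to 2407. The labels do not say whether libraries with the same replicate number were paired. Correlations of their deviations were -0.193 to -0.0322, which cannot show whether they were. With the replicate block 643 genes were called higher and 624 lower, and all 10 genes again rose. Calls in the list of negative acute-phase genes numbered 8, and 2 with library size only, 4 with the minimum fold and 7 to 13 with a library left out. In the cytokine and signalling list they numbered 11, and 5, 5 and 6 to 18 under the same settings, and 6 with the replicate block. In the list of receptors and partners they numbered 10, and 3 with the minimum fold, 5 to 22 with a library left out, 6 with the replicate block and 21 with voom quality weights. In the positive acute-phase list they numbered 23, and 19 with library size only, 17 with the minimum fold, 20 with the replicate block and 21 to 28 with a library left out. Alb, at -0.52, read 0.0127 with library size only. The cause of these shifts was not tested. With a library left out, the orosomucoid sum rose by 1.28 to 1.47 and the difference in share was -6.80 to -6.46 percentage points for Orm1, 5.31 to 5.64 for Orm2 and 1.13 to 1.32 for Orm3. Depth limits Lcn2, Orm2 and Orm3 in wild-type replicate 4, at 4, 9 and 6 counts. Scarce cytokines could not be compared.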
